A study of Mus musculus with 2 samples.

Results

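The chemokine Cxcl12 and its receptors Cxcr4 and Ackr3 were followed across the vessel types of the mouse adrenal gland. The 3 genes were taken by symbol from the gene tables of both libraries, where each has 1 row among 54838 genes. Cxcl12 (ENSMUSG00000061353) lies on chromosome 6, 117168535 to 117181367, plus strand. Cxcr4 (ENSMUSG00000045382) lies on chromosome 1, 128588199 to 128592293, minus strand, and Ackr3 (ENSMUSG00000044337) on chromosome 1, 90203980 to 90216751, plus strand (GRCm38/mm10). All are protein-coding, and the GENCODE M21 annotation places no other gene over any of them.

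Viable CD31+ CD45- cells had been sorted from adrenal glands of 12-week-old female mice and sequenced by the 10x Genomics droplet method, which counts unique molecular identifiers (UMIs) per gene and cell. The study asked how VEGF-A from macrophages bears on the diversity of adrenal endothelial cells, with 1 library labelled VEGF/LysM and 1 library from wild-type (WT) mice. LysM is another name of Lyz2, a gene of macrophages and neutrophils whose promoter is widely used to drive Cre in myeloid cells. The labels do not name the allele of the VEGF/LysM mice, nor how many mice gave each library. With 1 library per group there is no replicate error, no test and no p-value, and every ratio below compares these libraries. Intervals are exact 95% intervals and cover counting error only.

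CXCL12 is a secreted chemokine that binds heparan sulphate on cell surfaces and guides leukocytes, stem cells and endothelial cells. CXCR4 is its signalling receptor, coupled to Gi proteins, and in growing vessels it is known for endothelial migration, the joining of sprouts and the building of arteries. ACKR3, once called CXCR7, is an atypical receptor that takes up and degrades CXCL12 through β-arrestins and does not signal through G proteins in the usual way; it also takes up adrenomedullin.

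After filtering, 3677 VEGF/LysM cells with a median of 2318 UMIs and 5819 WT cells with a median of 1163 UMIs were kept, so the VEGF/LysM cells were read more deeply. Endothelial clusters held 3522 VEGF/LysM and 5676 WT cells, and 10 barcode sequences occurred in both libraries. All 8 pan-endothelial markers were detected in them, between 971 and 3335 UMIs per 1000000 UMIs of the cells summed (CPM) in VEGF/LysM and between 1066 and 3295 CPM in WT. The clusters were drawn without the 3 genes and are named by marker lists or by their leading genes. Continuous capillary-like cells were led by Cd36 and Car4. Fbln5 arterial-like cells were led by Col8a1, Fbln5 and Hey1, and Npnt arterial-like cells by Npnt, Tspan8 and Lgr5. The Fbln5 cluster had 3 arterial markers and 1 continuous capillary marker among its top 10 genes. Its most enriched list was the continuous capillary one (mean log2 1.52). Cd36 stood there at 7025 CPM in VEGF/LysM and 5699 CPM in WT, so the cluster carries both arterial and continuous capillary genes. Tip-like cells were led by Apln, Kcnj8 and Kcne3. Most other cells were Plvap-high, Plvap encoding the diaphragm protein of fenestrated vessels, and fell into an Esm1-led cluster (with Gzmk and Cyp26b1), a Mal-led cluster and 4 further clusters, pooled as other Plvap-high. A lymphatic- and venous-marked cluster, a haemoglobin-led cluster and small remainders made up the rest. Myeloid-like, lymphoid-like, adrenocortical-like and mural-like cells that had passed the sort were kept apart.

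The ligand, Cxcl12, lay in vessels of low Plvap. It reached 859 CPM (1402 UMIs, 815 to 906) in the 724 VEGF/LysM continuous capillary-like cells and 883 CPM (846 UMIs, 825 to 945) in the 786 WT ones. In Fbln5 arterial-like cells it stood at 1227 CPM (1069 to 1402, 70 cells) in VEGF/LysM and 1132 CPM (958 to 1329, 89 cells) in WT. Those were its highest levels, 1.43-fold (1.23 to 1.65) above the continuous capillary-like cells in VEGF/LysM and 1.28-fold (1.07 to 1.53) in WT. The Fbln5 cluster also carried continuous capillary genes, so this level is not that of arterial cells alone. The other cluster named arterial-like stood far lower: Npnt arterial-like cells had 96.5 CPM (61 UMIs, 73.8 to 124) in VEGF/LysM and 72.7 CPM (22 UMIs, 45.5 to 110) in WT. The ratio of Fbln5 to Npnt arterial-like cells was 12.7 (9.53 to 17.2) in VEGF/LysM and 15.6 (9.92 to 25.6) in WT.

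The cells of the Plvap-high classes pooled (Esm1-led, Mal-led and other) carried little of the ligand. They had 6.49 CPM (35 UMIs in 2107 cells) in VEGF/LysM and 8.57 CPM (45 UMIs in 4063 cells) in WT. Their level was 132 times (94.7 to 191) below that of continuous capillary-like cells in VEGF/LysM and 103 times (76.3 to 142) below it in WT. In Mal-led cells, 1 cell held 13 of the 20 UMIs in VEGF/LysM and 1 cell held 7 of the 14 in WT. Tip-like cells had 0 UMIs in VEGF/LysM, which allows up to 8.93 CPM, and 7 UMIs, 32.8 CPM (13.2 to 67.5), in WT. The lymphatic- and venous-marked cells had 2 UMIs in VEGF/LysM and 5 in WT. Haemoglobin-led cells, whose leading genes also include Car4, had 445 CPM in VEGF/LysM and 566 CPM in WT, and a small unnamed cluster of low Plvap had 557 CPM in VEGF/LysM and 443 CPM in WT.

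**Figure D1:**
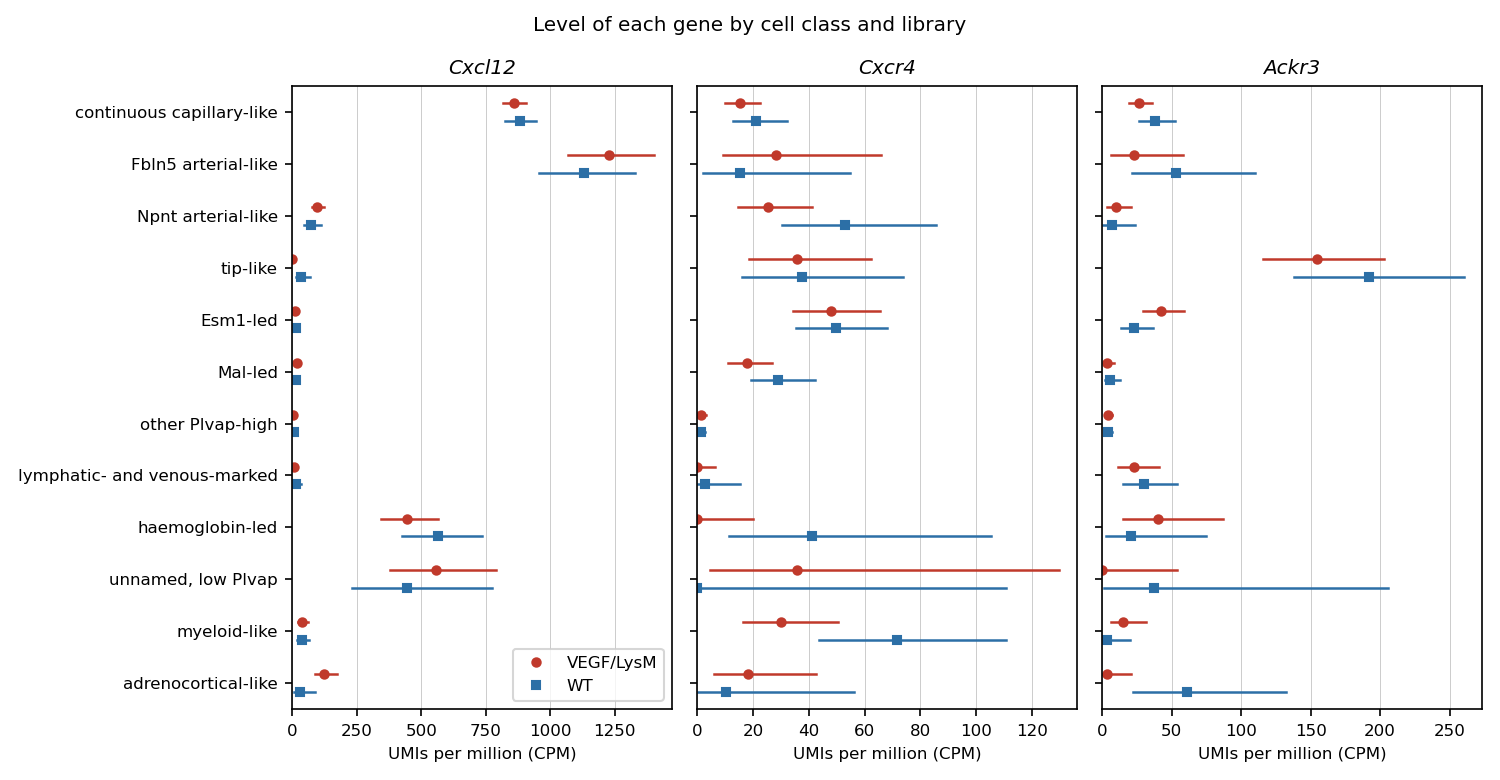
CPM of Cxcl12, Cxcr4 and Ackr3 (x axis, linear) in 12 cell classes (y axis), with VEGF/LysM as red circles above WT as blue squares; lines are exact Poisson 95% intervals over counts of 1 library. Cxcl12 stands at 859 CPM in VEGF/LysM and 883 CPM in WT continuous capillary-like cells, and Ackr3 at 155 CPM in VEGF/LysM and 192 CPM in WT tip-like cells.

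Continuous capillary-like and Fbln5 arterial-like cells together were a small share of the endothelium and held most of the ligand. Continuous capillary-like cells carried 77.2% of all endothelial Cxcl12 UMIs in VEGF/LysM and 74.1% in WT, and Fbln5 arterial-like cells 12.0% in VEGF/LysM and 13.1% in WT. Stromal cells are known sources of this chemokine in many organs, so their genes were read in both classes. In continuous capillary-like cells the fibroblast list summed to 3.68 CPM in VEGF/LysM and 1.04 CPM in WT, with Col1a1, Col1a2 and Lum at 0 in both. Of the mural list, Rgs5 had 85.2 CPM in VEGF/LysM and 130 CPM in WT, and no other gene of it passed 3.13 CPM. Fbln5 arterial-like cells had more Rgs5, 345 CPM (61 UMIs) in VEGF/LysM and 137 CPM (18 UMIs) in WT, and 1 UMI of Pdgfrb in VEGF/LysM and 2 in WT, with Col1a1, Col1a2, Lum and Dcn at 0 in both. The part of mural RNA in the Cxcl12 of these cells was not tested.

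Within a class the number of UMIs per cell was uneven. At full depth 256 of 724 VEGF/LysM and 354 of 786 WT continuous capillary-like cells had no Cxcl12 UMI, and 172 VEGF/LysM and 103 WT cells had 3 or more. The highest cell had 67 UMIs in VEGF/LysM and 16 in WT. With every cell thinned at random to 1000 UMIs, which left out 88 VEGF/LysM and 452 WT cells of this class, the share with a UMI was 51.9% (47.9 to 55.8) in VEGF/LysM and 53.0% (47.5 to 58.4) in WT. These shares overlap, while at full depth they were 64.6% in VEGF/LysM and 55.0% in WT. As a background, thinned myeloid-like cells, which should lack the gene, had a UMI in 3 of 85 cells (3.53%) in VEGF/LysM and 2 of 81 (2.47%) in WT, at median depths before thinning of 3362 UMIs in VEGF/LysM and 2550 in WT, against 1718 in VEGF/LysM and 906 in WT continuous capillary-like cells. Adrenocortical-like cells had a UMI in 2 of 36 thinned cells (5.56%, 0.68 to 18.7) in VEGF/LysM, where 11 of 44 had one at full depth and the level was 124 CPM, and in 0 of 30 in WT, which allows up to 10%. By these thinned shares Npnt arterial-like cells, with 8.11% (4.88 to 12.5) in VEGF/LysM and 6.94% (3.38 to 12.4) in WT, were not separated from these backgrounds of few cells. By level at full depth, their 96.5 CPM (73.8 to 124) in VEGF/LysM lay above the 36.7 CPM (21.4 to 58.7) of myeloid-like cells. It did not lie above the adrenocortical-like cells. In WT the intervals overlap, 45.5 to 110 against 17.2 to 66.0 in myeloid-like cells. Npnt arterial-like cells also stood above the far more numerous Plvap-high cells, whose shares were 0.608% (0.31 to 1.06) in VEGF/LysM and 0.597% (0.34 to 0.97) in WT.

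As a description of each class, Cxcl12 was set beside Cd36, the fatty-acid transporter that leads the continuous capillary-like cells. There were 0.0892 Cxcl12 UMIs per Cd36 UMI in continuous capillary-like cells of VEGF/LysM and 0.115 in those of WT. Adrenocortical-like cells had 0.107 in VEGF/LysM (34 Cxcl12 UMIs) and 0.0882 in WT (3 UMIs), and myeloid-like cells 0.0467 in VEGF/LysM and 0.0493 in WT. Npnt arterial-like cells had 0.984 in VEGF/LysM and 0.524 in WT, more Cxcl12 per Cd36 than in the capillary-like cells. Classes with few Cxcl12 UMIs could also stand high: Mal-led cells had 0.465 in VEGF/LysM and 0.264 in WT. Tip-like cells had 0.583 in WT (7 UMIs) and 0 in VEGF/LysM. The ratio thus varied between classes of few UMIs and does not identify a source. Over the whole continuous capillary list the libraries differed: thinned Npnt arterial-like cells with a Cxcl12 UMI had 444 CPM of it against 1025 CPM in those without in VEGF/LysM (18 and 204 cells, log2 −1.20, −2.44 to −0.20), and 4200 CPM against 1045 CPM in WT (10 and 134 cells, log2 2.01, 1.47 to 2.51). The source of the Cxcl12 UMIs in Npnt arterial-like cells was not tested.

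**Figure D2:**
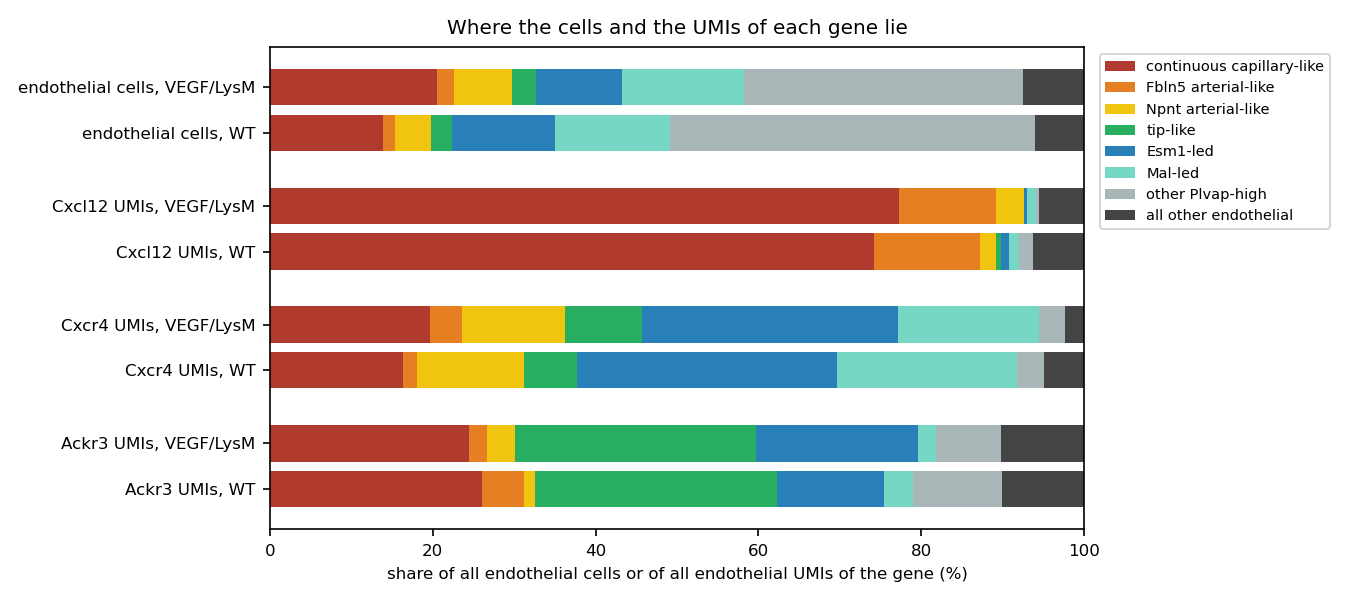
Share (x axis, %) of all endothelial cells and of all endothelial UMIs of each gene that lies in each class, as stacked bars coloured by class, with the VEGF/LysM bar above the WT bar. Continuous capillary-like cells hold 77.2% of the Cxcl12 UMIs in VEGF/LysM and 74.1% in WT, and no single class holds over 32.0% of the UMIs of either receptor.

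Over all endothelial cells Cxcl12 had 204 CPM (195 to 214) in VEGF/LysM and 154 CPM (145 to 164) in WT, a log2 ratio of 0.40 (0.30 to 0.51). It was the 1 of the 3 genes past the fold limit used here, a log2 ratio of 0.32 either way, beside 21.2% of the 12276 genes with at least 50 UMIs. The continuous capillary-like class showed no such ratio, −0.04 (−0.16 to 0.09). That class made up 20.6% of the endothelial cells in VEGF/LysM and 13.8% in WT, shares that rest on the clustering and on cells read to different depths. With every cluster given the same weight, Cxcl12 averaged 248 CPM in VEGF/LysM and 246 CPM in WT over 13 clusters, a log2 ratio of 0.02. In Npnt arterial-like cells the log2 ratio was 0.41 (−0.31 to 1.18), an interval that holds 0, where 36.4% of 4035 genes were past the fold limit, and it was −0.28 without the removal of doublets.

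The signalling receptor, Cxcr4, was sparse and was not confined to the vessels that carried the ligand. Over all endothelial cells it had 14.3 CPM (127 UMIs, 11.89 to 16.98) in VEGF/LysM and 16.5 CPM (122 UMIs, 13.7 to 19.7) in WT. Esm1-led cells had 48.1 CPM (40 UMIs, 34.4 to 65.5) in VEGF/LysM and 49.8 CPM (39 UMIs, 35.4 to 68.1) in WT. Against the rest of the endothelium this was 4.46-fold (2.99 to 6.56) higher in VEGF/LysM and 3.97-fold (2.64 to 5.87) in WT. Esm1 encodes endocan, a proteoglycan known from VEGF-A-exposed endothelium. The remaining Plvap-high cells outside the Esm1-led and Mal-led clusters had 1.21 CPM (4 UMIs in 1204 cells) in VEGF/LysM and 1.13 CPM (4 UMIs in 2549 cells) in WT, so the Esm1-led cells stood 39.9-fold (14.4 to 154) above them in VEGF/LysM and 44.0-fold (15.9 to 170) in WT. Within the fenestrated endothelium, then, the receptor was uneven, although Plvap itself was at 1295 CPM in Esm1-led and 1351 CPM in these other cells of VEGF/LysM, and at 1243 CPM in Esm1-led and 1199 CPM in these other cells of WT.

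Near the Esm1-led cells stood tip-like cells, with 35.7 CPM (12 UMIs) in VEGF/LysM and 37.5 CPM (8 UMIs) in WT, and Npnt arterial-like cells, with 25.3 CPM (16 UMIs, 14.5 to 41.1) in VEGF/LysM and 52.9 CPM (16 UMIs, 30.2 to 85.8) in WT. Mal-led cells had 17.7 CPM (22 UMIs) in VEGF/LysM and 29.1 CPM (27 UMIs) in WT, and continuous capillary-like cells 15.3 CPM (25 UMIs) in VEGF/LysM and 20.9 CPM (20 UMIs) in WT. The continuous capillary-like cells held 19.7% of the endothelial Cxcr4 UMIs in VEGF/LysM and 16.4% in WT. Fbln5 arterial-like cells had 28.3 CPM (5 UMIs, 9.18 to 66.0) in VEGF/LysM and 15.2 CPM (2 UMIs, 1.84 to 54.9) in WT. The order of tip-like, Npnt arterial-like and Esm1-led cells is not fixed by these counts: the ratio of Esm1-led to Npnt arterial-like cells was 1.90 (1.04 to 3.64) in VEGF/LysM and 0.942 (0.514 to 1.81) in WT. The lymphatic- and venous-marked cells had 0 UMIs in VEGF/LysM, which allows up to 6.25 CPM, and 1 UMI in WT.

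In the Esm1-led cells thinned to 1000 UMIs, 15 of 349 VEGF/LysM cells (4.298%, 2.43 to 6.99) and 15 of 361 WT cells (4.16%, 2.34 to 6.76) had a Cxcr4 UMI. Adrenocortical-like cells had been set as the background, but whether they lack the receptor was not tested. They gave 1 of 36 cells in VEGF/LysM and 0 of 30 in WT, which allows up to 10%. At full depth they had 18.2 CPM (5 UMIs) in VEGF/LysM and 10.1 CPM (1 UMI) in WT. Their median depths were 3828 UMIs in VEGF/LysM and 1906 in WT, against 2032 in VEGF/LysM and 1008.5 in WT Esm1-led cells. That background is too thinly sampled to set a floor. The other Plvap-high cells had a UMI in 1 of 1119 cells in VEGF/LysM and 3 of 1875 in WT. They were not the background set beforehand, and their low level had already been seen, so they give no independent floor. Esm1-led cells with a Cxcr4 UMI carried more of the fenestrated marker list than those without, 19800 against 13868 CPM in VEGF/LysM (log2 0.51, 0.34 to 0.68) and 16267 against 13598 CPM in WT (0.26, 0.07 to 0.44). That list includes Esm1, Npr3 and Igfbp3, which lead this cluster. Esm1 alone had 4303 CPM in VEGF/LysM and 3772 CPM in WT Esm1-led cells, so the sum does not read fenestration alone. In the cells with Cxcr4 the arterial list was also higher, by a log2 ratio of 0.60 (0.02 to 1.12) in VEGF/LysM and 0.86 (0.35 to 1.33) in WT. These intervals pool the UMIs of 15 cells with the receptor per library and leave out the spread between cells. The hypoxia-induced list held too few UMIs in these cells to compare, with 0 in the 15 VEGF/LysM cells with the receptor.

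**Figure D3:**
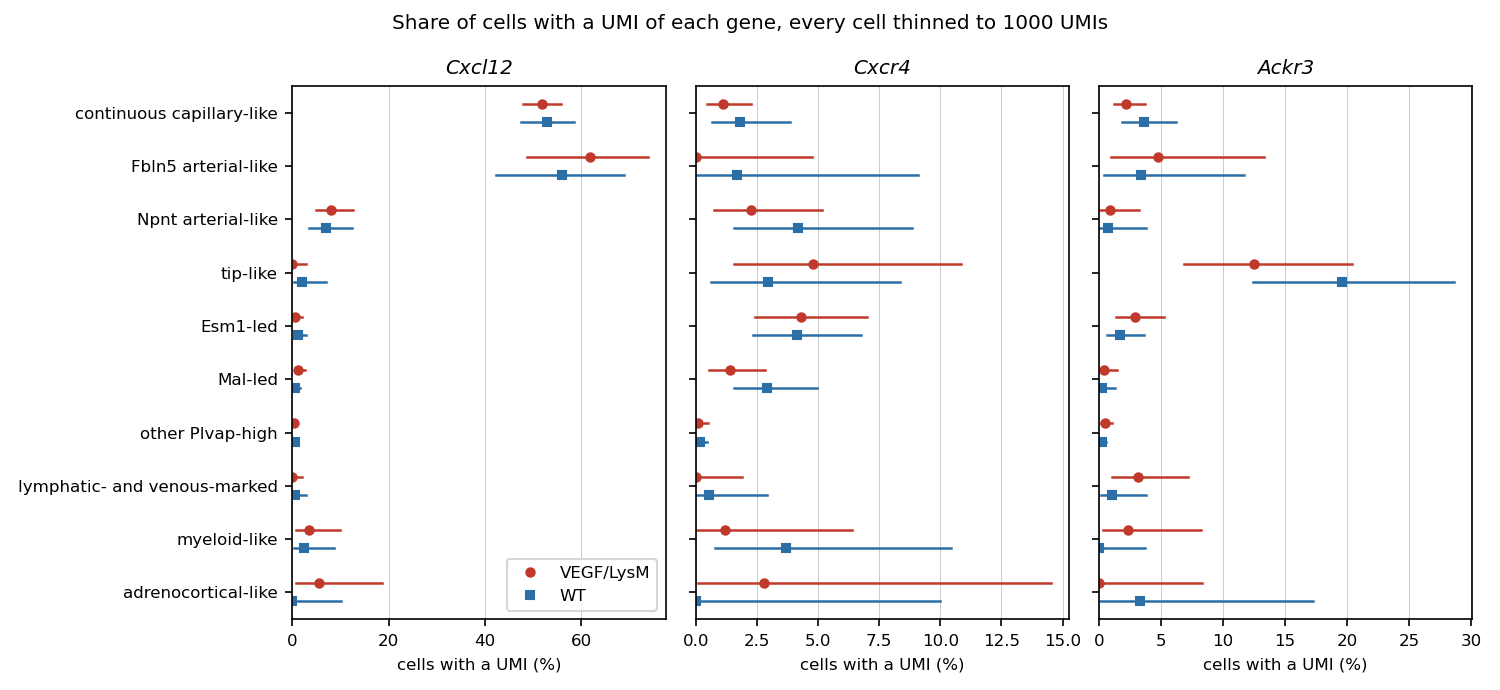
Share of cells with at least 1 UMI of each gene (x axis, %) after every cell was thinned to 1000 UMIs, in 10 classes (y axis), with VEGF/LysM as red circles above WT as blue squares; lines are exact binomial 95% intervals, or the limit of 3 cells where none had a UMI. Cxcl12 was found in 51.9% of VEGF/LysM and 53.0% of WT continuous capillary-like cells, and Ackr3 in 12.5% of VEGF/LysM and 19.6% of WT tip-like cells.

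No endothelial class showed a Cxcr4 ratio whose interval left out 0. The log2 ratio was −0.21 (−0.58 to 0.16) over all endothelial cells and −0.05 (−0.72 to 0.63) in Esm1-led cells, where 30% of 5877 genes were past the fold limit. The lowest was in Npnt arterial-like cells, −1.06 (−2.16 to 0.03), from 16 UMIs in each library. It lay between −1.16 and −0.73 over 9 alternative settings, and without the cell of most UMIs its interval ran from −2.32 to −0.01. Myeloid-like cells, leukocytes being the best-known carriers of this receptor, had 30.2 CPM (14 UMIs) in 88 VEGF/LysM cells and 71.8 CPM (20 UMIs) in 91 WT cells, too few cells for the class limit of 100.

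**Figure D4:**
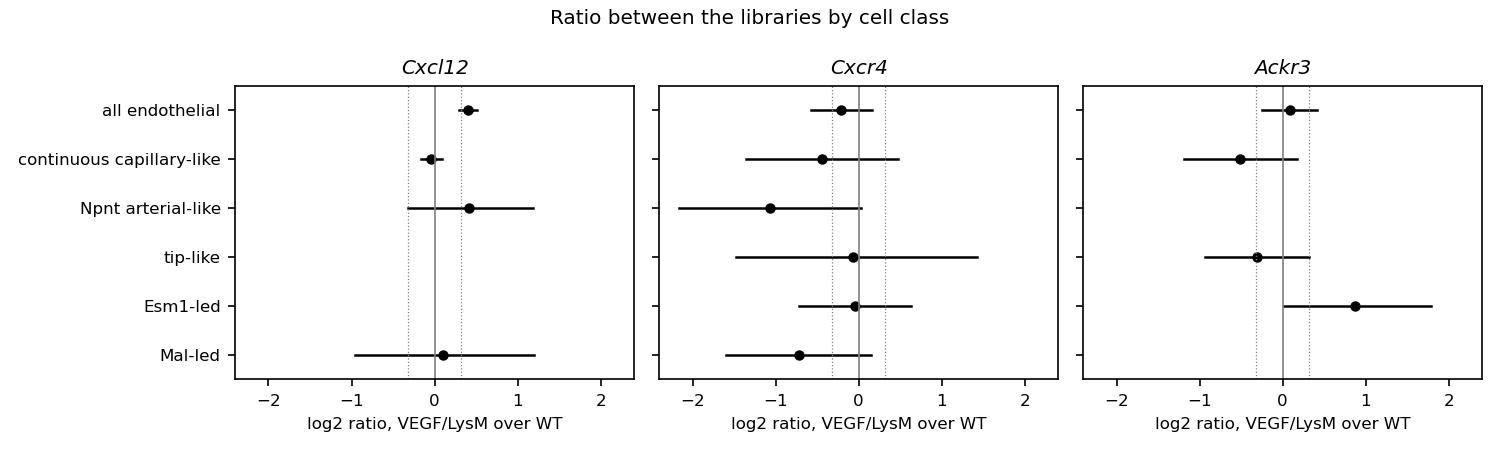
Log2 ratio of CPM, VEGF/LysM over WT (x axis), in all endothelial cells and in 5 classes (y axis) for the 3 genes; lines are exact conditional binomial 95% intervals, dotted lines mark the fold limit of 0.32 on the log2 scale, and classes with under 20 UMIs over both libraries are left blank. Cxcl12 is at 0.40 in all endothelial cells and at −0.04 in continuous capillary-like cells.

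Among the classes, the scavenging receptor, Ackr3, was highest in tip-like cells, the class named for Apln, the apelin gene of sprouting endothelium. It had 155 CPM (52 UMIs, 116 to 203) in the 104 VEGF/LysM tip-like cells and 192 CPM (41 UMIs, 138 to 260) in the 146 WT ones. Against the rest of the endothelium this was 10.7-fold (7.58 to 14.9) higher in VEGF/LysM and 14.2-fold (9.62 to 20.7) in WT. The clusters had been drawn without Ackr3, and it was still among the 10 genes that led this one. After thinning, 13 of 104 VEGF/LysM cells (12.5%, 6.83 to 20.4) and 20 of 102 WT cells (19.6%, 12.4 to 28.6) had a UMI, against 2 of 85 myeloid-like cells in VEGF/LysM and 0 of 81 in WT.

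Esm1-led cells had 42.1 CPM (35 UMIs, 29.3 to 58.5) in VEGF/LysM and 23.0 CPM (18 UMIs, 13.6 to 36.3) in WT, and continuous capillary-like cells had 26.4 CPM (43 UMIs, 19.1 to 35.5) in VEGF/LysM and 37.6 CPM (36 UMIs, 26.3 to 52.0) in WT. Fbln5 arterial-like cells had 22.6 CPM (4 UMIs, 6.16 to 57.9) in VEGF/LysM and 53.2 CPM (7 UMIs, 21.4 to 110) in WT. The intervals of these classes overlap within each library, so their order below the tip-like cells is not fixed by the counts. Npnt arterial-like and Mal-led cells, which carried Cxcr4, had 9.49 and 3.23 CPM of Ackr3 in VEGF/LysM and 6.61 and 5.38 CPM in WT. The other Plvap-high cells had 4.22 CPM in VEGF/LysM and 4.24 CPM in WT.

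A further site of Ackr3 lay among the lymphatic- and venous-marked cells, with 22.9 CPM (11 UMIs) in VEGF/LysM and 30.2 CPM (11 UMIs) in WT. Divided again, a step added after the data had been seen, that cluster gave a subcluster led by Pcdh7, Mgp, Fgl2 and Vwf, Vwf encoding von Willebrand factor, in which the lymphatic genes Mmrn1 and Ccl21a were also highest. Prox1, the lymphatic transcription factor, was highest there in WT, at 131 CPM (7 UMIs), but in VEGF/LysM it had 32.1 CPM (4 UMIs) there and 63.0 CPM (5 UMIs) in another subcluster. The subcluster held 9 of the 11 Ackr3 UMIs in VEGF/LysM, 72.2 CPM (33.0 to 137, 48 cells), and 10 of the 11 in WT, 187 CPM (89.6 to 344, 44 cells). Both intervals overlap those of tip-like cells, 155 CPM (116 to 203) in VEGF/LysM and 192 CPM (138 to 260) in WT. In WT the levels were not separated. The other subclusters, with 116 VEGF/LysM and 192 WT cells, held 2 UMIs in VEGF/LysM and 1 in WT.

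The log2 ratio of Ackr3 was 0.08 (−0.25 to 0.42) over all endothelial cells, −0.31 (−0.93 to 0.32) in tip-like cells, where 36.5% of 2539 genes were past the fold limit, and −0.51 (−1.18 to 0.17) in continuous capillary-like cells, where 30.8% of 7410 genes were. In tip-like cells it was negative under all 9 alternatives, which draw on the same libraries and are not independent of each other. Its interval left out 0 under the stricter cell filter, −0.71 (−1.26 to −0.15). It also did so with the 3 genes kept in the clustering, −0.60 (−1.19 to −0.0015), where Ackr3 itself could help choose the cells. In Esm1-led cells the log2 ratio was 0.87 (0.01 to 1.78), from 18 cells with a UMI in each library, of 373 VEGF/LysM and 714 WT cells. A single VEGF/LysM cell held 9 of the 35 UMIs. Without the cell of most UMIs in each library the levels were 31.4 CPM in VEGF/LysM and 21.7 CPM in WT, and the log2 ratio was 0.53 (−0.41 to 1.504). Tip-like and Esm1-led cells pooled, also added after the data had been seen, gave 0.33 (−0.16 to 0.83).

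Ligand and receptors were found together in a small number of cells. At full depth 23 VEGF/LysM and 19 WT endothelial cells had UMIs of both Cxcl12 and Cxcr4, of 106 VEGF/LysM and 115 WT cells with the receptor. That is 21.7% (14.3 to 30.8) of the VEGF/LysM and 16.5% (10.3 to 24.6) of the WT cells with Cxcr4, where Cxcl12 was found in 17.8% of all VEGF/LysM and 10.3% of all WT endothelial cells. Of cells with Ackr3, 29.4% (21.6 to 38.1) in VEGF/LysM and 18.8% (12.2 to 27.1) in WT had Cxcl12. Of the cells with Cxcl12 and Cxcr4, 18 in VEGF/LysM and 14 in WT were continuous capillary-like, and none was tip-like, Esm1-led or Mal-led in either library. Cxcl12 and Ackr3 occurred together in 37 VEGF/LysM cells, 28 of them continuous capillary-like, and in 22 WT cells, 16 of them continuous capillary-like. Both receptors occurred together in 9 cells of each library, of which 2 in VEGF/LysM and 4 in WT were tip-like, and 3 in VEGF/LysM and 2 in WT were Esm1-led.

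Depth differed between these cells. Those with Cxcl12 and Cxcr4 had a median of 3434 UMIs in VEGF/LysM and 1344 in WT, against 2029 in VEGF/LysM and 1111 in WT for those with Cxcl12 and no Cxcr4. Cells with Cxcl12 and Ackr3 were also deeper than those with Cxcl12 and no Ackr3, at 3928 against 2001 in VEGF/LysM and 1578.5 against 1105.5 in WT. Cells with both receptors were deeper than cells with neither in VEGF/LysM, 4439 against 2256, and shallower in WT, 1027 against 1149. In thinned continuous capillary-like cells, Cxcl12 was found in 6 of 7 VEGF/LysM cells with a Cxcr4 UMI (85.7%, 42.1 to 99.6) and 51.5% of those without. In WT it was found in 3 of 6 cells with a Cxcr4 UMI (50%, 11.8 to 88.2) and 53.1% of those without. For Ackr3 the shares were 7 of 14 cells with it (50%) and 51.9% of cells without it in VEGF/LysM, and 7 of 12 cells with it (58.3%) and 52.8% of cells without it in WT. These intervals overlap, so within this class no difference in the ligand between cells with and without a receptor UMI was detectable at this depth. Over all thinned endothelial cells, Cxcl12 was found in 16.4% (7.77 to 28.8) of VEGF/LysM cells with Ackr3 and 13.3% (12.1 to 14.5) of those without, and in 18.8% (8.95 to 32.6) of WT cells with Ackr3 and 6.93% (6.11 to 7.82) of those without. The WT intervals there do not overlap, but at 750 UMIs per cell they do, with 11.8% (4.44 to 23.9) of WT cells with Ackr3 and 7.001% (6.29 to 7.77) of those without. At 1000 UMIs, 7 of the 9 WT cells with both were continuous capillary-like, the class that carries most of the ligand.

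By likeness over the 12 endothelial clusters with at least 50 cells in each library, on the log2(CPM + 10) scale and among 8833 genes, Cxcl12 was followed closely. The 5 genes nearest to it by the lower of both libraries' Pearson correlations were Dach1 (0.98), a transcriptional cofactor known in coronary artery growth of mice, Slc26a10 (0.97), Lmo1 (0.97), a LIM-only transcriptional regulator, Gpr160 (0.97), an orphan receptor, and Enah (0.97), an actin regulator. Dach1 had 1159 CPM in VEGF/LysM and 1160 CPM in WT continuous capillary-like cells, and 5.73 CPM in VEGF/LysM and 7.07 CPM in WT other Plvap-high cells. In Npnt arterial-like cells Dach1 stood between these, at 83.9 CPM in VEGF/LysM and 62.8 CPM in WT.

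The receptors had looser matches. For Cxcr4 they were Ece1 (0.83), the endothelin-converting enzyme, Aff1 (0.81), a subunit of the super elongation complex, Slc7a7 (0.80), an amino-acid transporter, Nav1 (0.79), a neuron navigator, and Dars (0.78), an aspartyl-tRNA synthetase. For Ackr3 they were Chchd10 (0.81), a mitochondrial protein, Arhgap18 (0.78), N4bp3 (0.75), Stx6 (0.74), a syntaxin, and Magi1 (0.73), a junctional scaffold. Chchd10 had 533 CPM in VEGF/LysM and 463 CPM in WT tip-like cells, against 87.8 CPM in VEGF/LysM and 84.3 CPM in WT Esm1-led cells. The clusters share libraries and depth, and the receptor correlations rest on few UMIs, so these lists are a description: 1 to 3 of each 5 genes were again among the nearest under another pseudocount or cluster limit.

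Around the 3 genes, 43 others of the pathway were listed, and 33 of them had at least 50 UMIs. In VEGF/LysM 4 were past the fold limit on the higher side, 2 on the lower side and 27 within it, with a median log2 ratio of −0.06, beside 9.86% of all 12276 genes higher, 11.3% lower and a median of −0.03. The higher ones were Mif, Cd74, Ramp2 and Sox17, and the lower ones, Arrb2 and Sdc4, were under 20 CPM in both libraries.

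Among ligands, Mif, a cytokine that also binds CXCR4 and ACKR3, had 53.9 CPM in VEGF/LysM and 34.9 CPM in WT (log2 0.63, 0.41 to 0.85). In continuous capillary-like cells its log2 ratio was 0.35 (−0.07 to 0.79) and in the other Plvap-high cells 0.55 (0.16 to 0.95). Adm, encoding adrenomedullin, had 16.7 CPM in VEGF/LysM and 19.3 CPM in WT (−0.21, −0.55 to 0.13). Tip-like cells, where Ackr3 was highest, had 80.3 CPM of Adm (27 UMIs) in VEGF/LysM and 32.8 CPM (7 UMIs) in WT. These counts together stay under the limit of 50 UMIs.

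Among receptors, Cd74, the MIF receptor subunit and MHC class II invariant chain, had 54.5 CPM in VEGF/LysM and 10.5 CPM in WT (log2 2.37, 2.02 to 2.73). Esm1-led cells had 72.2 CPM in VEGF/LysM and 7.66 CPM in WT, Mal-led cells 94.3 CPM in VEGF/LysM and 9.69 CPM in WT, and continuous capillary-like cells 35.6 CPM in VEGF/LysM and 8.35 CPM in WT. Myeloid-like cells held 5046 CPM in VEGF/LysM and 2967 CPM in WT, and made up 88 VEGF/LysM and 91 WT cells; the part of their RNA in the endothelial values was not tested. A list of 10 other myeloid genes summed to 144 CPM in VEGF/LysM and 104 CPM in WT endothelial cells, with 121 CPM in VEGF/LysM and 90.0 CPM in WT in its highest gene and Ptprc at 0 in VEGF/LysM. In tip-like cells the highest gene of the list had 152 CPM in VEGF/LysM and 84.3 CPM in WT. Lyz2, Csf1r, C1qa and C1qb were at 0 there in both, so the sum does not measure myeloid RNA. Calcrl, the adrenomedullin receptor, had 644 CPM in VEGF/LysM and 650 CPM in WT (−0.01), and its partner Ramp2 had 421 CPM in VEGF/LysM and 327 CPM in WT (0.36, 0.29 to 0.44).

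Of 10 measured genes of signalling and receptor turnover, 9 were within the fold limit and the β-arrestin gene Arrb2 was lower, with 9.77 CPM in VEGF/LysM and 14.7 CPM in WT. Of the upstream factors, Sox17, an endothelial transcription factor of arteries, had 218 CPM in VEGF/LysM and 159 CPM in WT (0.45, 0.35 to 0.56), and the 9 others were within the limit. Its level was 1282 CPM in VEGF/LysM and 1183 CPM in WT Npnt arterial-like cells, where its log2 ratio was 0.12 (−0.07 to 0.30), and that class made up 7.13% of VEGF/LysM and 4.42% of WT endothelial cells. Dpp4, a protease that inactivates CXCL12, had 1 UMI in VEGF/LysM and 32 in WT endothelial cells. Of these, 1 in VEGF/LysM and 29 in WT lay in a Stab2-led cluster of 1 VEGF/LysM and 13 WT cells, and the continuous capillary-like cells, where most of the ligand lay, had none in either library.

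**Figure D5:**
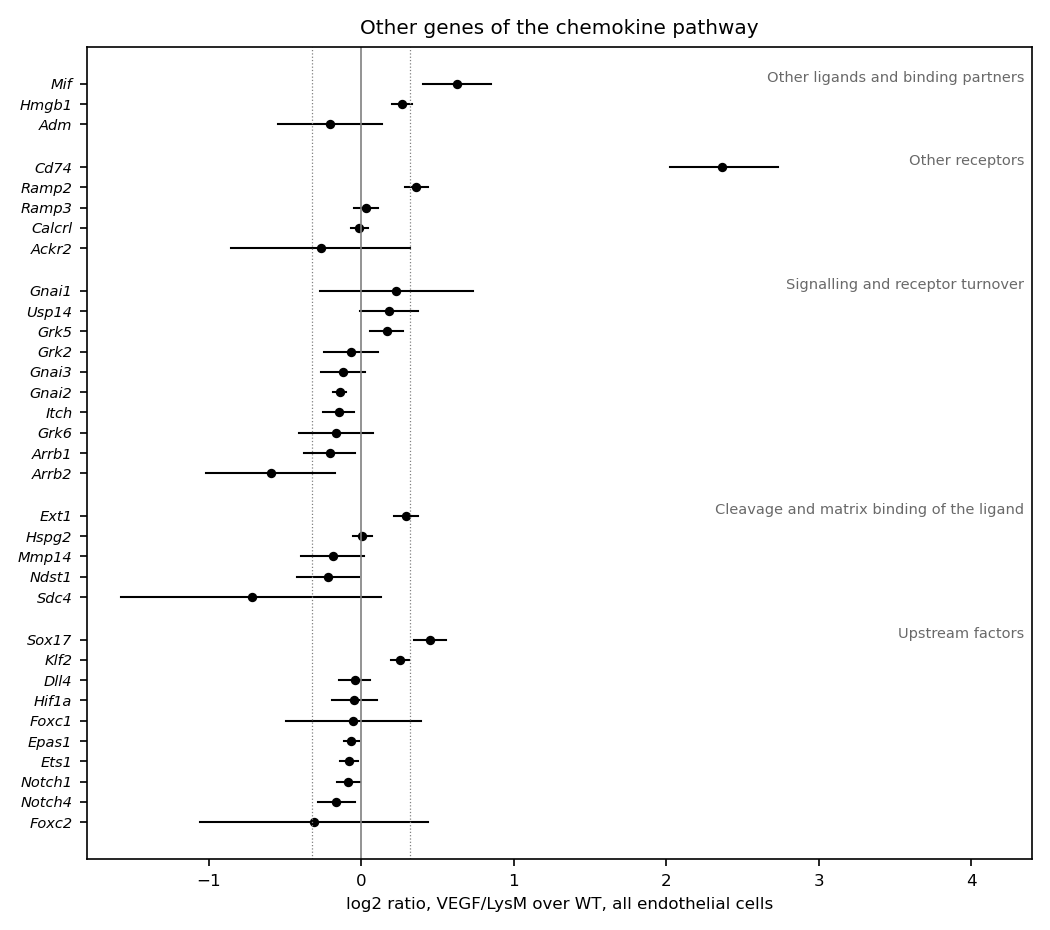
Log2 ratio of CPM over all endothelial cells, VEGF/LysM over WT (x axis), for the 33 pathway genes with at least 50 UMIs (y axis, by role); lines are exact conditional binomial 95% intervals and dotted lines mark the fold limit of 0.32 on the log2 scale. Cd74 lies farthest out at 2.37, and 27 of the 33 genes lie between the dotted lines.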

How the data were processed

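The deposited files held raw UMI counts per gene and cell; the authors had applied no normalization to them. The submitters' processing notes name Cell Ranger 7.0.1, Seurat and mm10, and the file headers name Cell Ranger 7.0.0; the annotation release and the use of intronic reads are not stated in the labels. Depth was 10323972 UMIs over 3807 VEGF/LysM barcodes and 8606348 over 6276 WT barcodes.

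The cell filter asked for 500 or more UMIs, 300 or more genes and no more than 15% of UMIs from mitochondrial genes. Scrublet's own threshold marked 4 VEGF/LysM and 1 WT barcodes and was not used; the highest scores were left out instead, at 0.8% per 1000 barcodes (116 VEGF/LysM, 315 WT). Cells were clustered together in scanpy 1.11.5 without integration (10000 per cell, 2000 variable genes without the 3 members, 30 components, 15 neighbours, Leiden resolution 1). Names from marker lists were given in order. The lymphatic- and venous-marked name asked for a mean log2 enrichment of 1.5 in both lists. Arterial-like and tip-like names then asked for 3 markers among the top 10 genes. An arterial-like name also asked for more arterial than continuous capillary markers there. Other list names came from the most enriched list, when its mean log2 enrichment reached 1.5. No name was taken from the fenestrated list. Clusters not named from a list were called Plvap-high from 700 CPM. Among endothelial clusters named from lists, the lymphatic- and venous-marked (2135 CPM), tip-like (726 CPM) and proliferating-like (734 CPM) ones also passed that limit. These naming limits were chosen with the clusters in view.

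UMIs were summed per library and class and scaled to CPM. Ratios are VEGF/LysM over WT, in classes of at least 100 cells per library. Levels carry Poisson, shares Clopper-Pearson and ratios conditional binomial intervals; a count of 0 allows 3. The code was tested on simulated data. The genes named are the 3 members, their 5 nearest genes, pathway genes of at least 20 CPM past a log2 ratio of 0.32 either way, and Mif, Adm, Dpp4, Cd74 and Calcrl. Members and lists were chosen with earlier results of these data known. Cell filters, doublet removal, scaling, depth, resolution and cell mix were varied. No sequence is printed here.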

Additional observations from a re-analysis of the deposited data

How the results depend on the processing

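No paired analysis was possible because each group has 1 library and the labels pair no samples. Under other settings, 83 values of the main results stayed inside the counting interval of the main value (or near it, for counts of genes) and 21 moved outside. These intervals are wide for the receptors, so a value inside one can differ in sign from the main value. The log2 ratio of Cxcl12 over all endothelial cells was 0.86 with cells thinned, 0.61 under the stricter cell filter and 0.015 with clusters weighted equally; in continuous capillary-like cells it lay on both sides of 0, between −0.12 and 0.02, over 9 alternatives, and its interval left out 0 without doublet removal (−0.12, −0.24 to −0.01). The sign also changed for Ackr3 over all endothelial cells with equal weights, −0.33, for Ackr3 in tip-like and Esm1-led cells pooled under the stricter filter, −0.24, and for Cxcl12 in Npnt arterial-like cells without doublet removal, −0.28. It changed for Cxcr4 in Esm1-led cells, to 0.39 with cells thinned and 0.50 under the stricter filter, and in tip-like cells, to 0.71 with cells thinned and 0.07 without the cell of most UMIs. Ackr3 in tip-like cells kept its sign, between −0.71 and −0.25. At full depth 29.4% of VEGF/LysM cells with Ackr3 had Cxcl12. The share of Cxcl12 UMIs in continuous capillary-like cells was 88.4% in VEGF/LysM and 84.4% in WT under the stricter filter, 83.9% in VEGF/LysM and 79.1% in WT without a filter, and 93.0% in VEGF/LysM and 91.9% in WT at resolution 0.5; in VEGF/LysM it was 74.4% at resolution 1.5 and 73.8% with the 3 genes kept in the clustering. The share of Cxcr4 UMIs in Esm1-led cells was 13.7% in VEGF/LysM and 10.8% in WT under the stricter filter, and 48.8% in VEGF/LysM and 56.1% in WT at resolution 0.5. The share of Ackr3 UMIs in tip-like cells was 38.5% in VEGF/LysM and 45.5% in WT under the stricter filter, and in WT 38.1% without doublet removal and 38.4% at resolution 1.5. Class borders moved with these settings; what each shift rests on was not tested. Depth limits both receptors, at 106 to 126 cells with a UMI per library.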
